A study of Bos taurus with 52 samples.

Results

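The subject here is the longer against the shorter of 2 conceptuses recovered from one uterus. Members were chosen by the animal number that opens each conceptus title: 8 numbers (690, 753, 755, 778, 825, 894, 971 and 985) occurred in 2 titles each, which gave 16 of the 27 conceptus libraries and 16 of the 52 libraries in all. Within each pair the library with the greater length in its title was called longer. The study sequenced RNA from the endometrium and the conceptuses of heifers classified by fertility. The conceptuses were taken on day 17 of pregnancy from high-fertile (HF) and subfertile (SF) recipients, and no other treatment or genotype is given. Recipients 690, 755 and 778 were SF and the other 5 were HF. Each pair is 1 animal, so n is 8 pairs, and whether the 2 conceptuses had the same parents is not stated in the labels. The longer and shorter conceptus measured 50 and 40 mm in 690, 15 and 12 mm in 753, 135 and 40 mm in 755, and 70 and 40 mm in 778. They measured 90 and 34 mm in 825, 104 and 69 mm in 894, 170 and 28 mm in 971, and 117 and 13 mm in 985. The ratio of the lengths therefore ran from 1.25 in 690 and 753 to 9.0 in 985, and the longer conceptus of 753 was shorter than every shorter conceptus of other pairs except that of 985.

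Around the third week of pregnancy the bovine conceptus changes from a sphere to a long filament, mostly by growth of the trophectoderm and of the endoderm beneath it. The trophectoderm secretes interferon tau, which tells the mother that she is pregnant, together with pregnancy-associated glycoproteins (PAG) and trophoblast Kunitz domain proteins (TKDP). The embryo proper forms from the small epiblast disc, and the visceral endoderm lines the yolk sac and makes plasma proteins and apolipoproteins. Nutrition comes from uterine gland secretion, so 2 conceptuses in one uterus share the hormones and the histotroph of one mother.

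The 16 libraries held 22.9 to 47.0 M counts and 19346 to 21607 detected genes. Total counts averaged 31.5 M in the longer and 35.9 M in the shorter conceptuses, and 2 of 8 pairs were higher in the longer. None of 4 library measures (total, genes detected, share in RN7SL1 and RMRP, share in the 10 most abundant genes) differed with length order by an exact paired permutation test (p = 0.117 to 0.758, two-sided, smallest possible p 0.00781). The sample numbering in the description fields ran over 2 sheets. In pairs 690, 971 and 985 the shorter conceptus was on the second sheet and the longer on the first, so in those 3 pairs sheet and length order cannot be told apart. Trophectoderm keratins were abundant in every library: KRT8 was at 4520 to 14000 CPM (the counts of a gene scaled to a common library size) and KRT18 at 3890 to 17800 CPM. HBA was at 0 in all 16 libraries and HBB had at most 1 read. Only 1 of the listed red blood cell genes, ALAS2, passed the filter on low counts. Its log2(CPM + 1) was 6.72 and 4.9 in the longer and shorter conceptus of 971. It was 5.81 and 6.25 in 778, and 0.46 to 3.65 in the other pairs. The 10 uterine stroma markers summed to 4.13 to 28.6 CPM. Pairs 825 (uterine transcripts in both mates), 971 (a high share of RN7SL1 in the longer) and 755 (mates unlike in Y-linked transcripts) stood apart, and leaving out any 1 pair left the number of genes called between mates at 0.

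The first comparison asked how alike 2 conceptuses of one uterus were. Pearson's r of log2 CPM between mates had a median of 0.975 (0.956 to 0.987, n = 8 pairs), against 0.942 (0.890 to 0.977) for the 112 combinations of libraries from different animals. These are correlations across genes, given as a description. The most alike pair was 778 (0.987) and the least alike were 985 (0.956) and 971 (0.963). In 13 of 16 libraries the mate was the most similar of the 15 other libraries. The exceptions were the shorter conceptuses of 755 and 894, nearest to each other at 0.977, and the longer conceptus of 985, for which 5 libraries of other animals were closer than its mate. Mates on different sheets reached 0.956 to 0.980, and mates on 1 sheet 0.966 to 0.987.

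**Figure D1:**
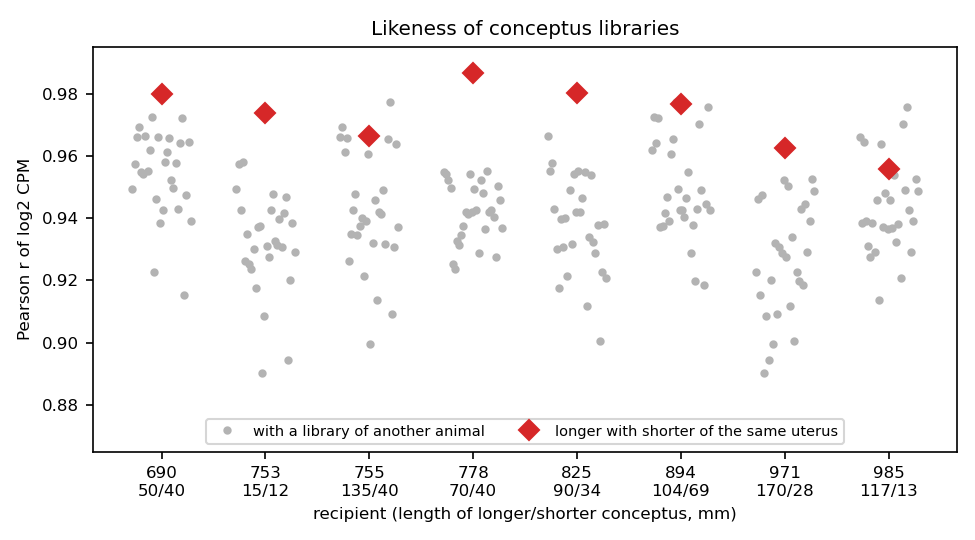
Pearson's r of log2 CPM over the genes tested, by recipient, with the lengths of both conceptuses in mm. Red diamonds are the 2 conceptuses of one uterus and grey points are each of them with the libraries of other animals; the diamonds of 690, 753, 778, 825, 894 and 971 lie above all their grey points except, in 894, the pairing of its shorter conceptus with that of 755.

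Between mates a median of 1494.5 genes were at least 2-fold apart, from 670 in 778 to 2897 in 985, against a median of 2935.5 between animals. Mates of more unequal length were less alike: over the 8 pairs, Pearson's r between the log2 length ratio and the number of such genes was 0.789 (exact permutation p = 0.0238, adjusted 0.0238) and Spearman's rho was 0.599 (p = 0.125). For the log2 length ratio and the likeness of mates r was -0.835 (exact permutation p = 0.0177, adjusted 0.0238 over the 2 relations) and rho was -0.645 (p = 0.0926). Both rest on the 2 most unequal pairs: without 971 and 985 they were 0.24 and -0.421. Those 2 pairs are also 2 of the 3 split over the sheets, and 5 pairs on 1 sheet are too few for a correlation of their own.

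The second comparison was the longer against the shorter conceptus over all 8 pairs. No gene was called: 0 of 15337 genes tested (0%) passed an adjusted p of 0.05 in edgeR's quasi-likelihood test with the animal as a block, and the smallest adjusted p was 0.948. An unadjusted p under 0.05 was seen for 715 genes (5% of those tested is 767). DESeq2 called 4 genes on the same design (BCL2L14, ZNF589, TMEM132C and LOC100301215, each with an adjusted p of 0.0418) and limma-voom called 0. The precision was a median standard error (SE) of 0.163 on the log2 scale, so that the 95% interval of a typical gene reached 0.353 to either side, and that of 10% of genes over 0.816. Estimated differences were small: their median size was 0.126 and 68 genes (0.443%) had an estimate of 2-fold or more. Of the 15337 estimates 8084 were positive, the share beside which counts of positive genes in a list are to be read.

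Genes with the smallest p are given as values, since none was called by edgeR. BCL2L14, a member of the BCL2 family of apoptosis regulators, was higher in the longer conceptus of all 8 pairs. Its CPM in the longer and shorter mate were 7.19 and 4.79 in 690, 4.42 and 2.61 in 753, 7.39 and 3.79 in 755, 10.5 and 6.76 in 778, 6.19 and 6.11 in 825, 15.4 and 5.37 in 894, 22.3 and 12.7 in 971, and 7.63 and 4.67 in 985. The 2 groups overlapped, since animals differed more than mates did, and the paired log2 difference was 0.75 ± 0.16 (SE). GATA2, a trophectoderm transcription factor, was higher in 7 pairs (0.43 ± 0.12) and level in 971 (108 CPM in both). Its widest gaps were in 753 (118 against 62.3 CPM) and 825 (57.9 against 31.6 CPM). BIN2, which encodes a membrane-bending protein, was at 42.4 to 72.8 CPM in the longer and 31.8 to 64.7 CPM in the shorter, higher in the longer of all 8 pairs (0.39 ± 0.11). The remaining genes with the smallest p on this side were ZNF589, TMEM132C, DNASE1, PSD3, SNAPC5, ANKRD11 and CNTRL, with log2 differences of 0.35 to 0.88.

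BCAT1, the cytosolic enzyme that starts the breakdown of branched-chain amino acids, was lower in the longer conceptus of all 8 pairs. Its CPM in the longer and shorter mate were 86.8 and 94.0 in 690, 148 and 201 in 753, 68.4 and 115 in 755, 121 and 125 in 778, 141 and 228 in 825, 68.2 and 87.5 in 894, 58.7 and 102 in 971, and 83.9 and 134 in 985. The gap was narrow in 690 and 778, and the paired log2 difference was -0.48 ± 0.11. PGRMC1, a membrane-associated progesterone receptor component, was also lower in 8 of 8 (median 348 CPM in the longer and 467 CPM in the shorter, -0.37 ± 0.10). NXT2, an mRNA export factor, was at 17.3 to 45.5 CPM in the longer and 25.5 to 59.9 CPM in the shorter, again lower in all 8 pairs, though 36.6 against 36.7 CPM in 778. SDHD, the membrane anchor of succinate dehydrogenase, was at a mean of 163 CPM against 211 CPM (-0.37 ± 0.10, lower in 8 of 8). The histone genes HIST1H3I, H2B-3 and HIST1H2AC-2 were on this list too, and histone genes have close copies between which reads can be split. The other genes were SHISA2, MCTS1 and XRCC6BP1. None of these 20 genes changed sign when any 1 pair was left out. Since they were chosen by small p in the same 8 pairs, this is no independent check.

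**Figure D2:**
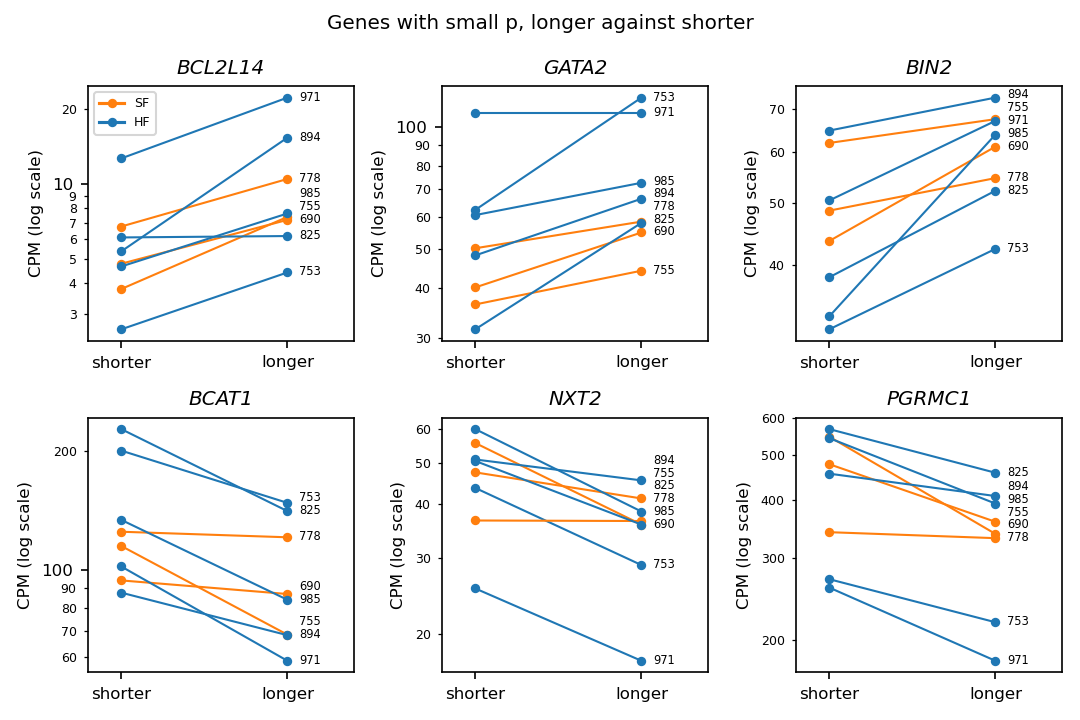
CPM on a log axis for 6 of the 20 genes with the smallest unadjusted p, with a line from the shorter to the longer conceptus of each recipient (orange SF, blue HF). BCL2L14, GATA2 and BIN2 lines go up or stay level and BCAT1, NXT2 and PGRMC1 lines go down, while the recipients spread over a wider range than the slopes.

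Secreted trophoblast products came next. IFNT2, an interferon tau gene, was at 6190 and 10300 CPM in the longer and shorter conceptus of 690, 1540 and 860 in 753, 3210 and 7270 in 755, 8090 and 7850 in 778, 7300 and 10900 in 825, 7940 and 7920 in 894, 6420 and 5550 in 971, and 13200 and 14900 in 985. It was higher in the longer conceptus in 4 pairs and lower in 4, with a log2 difference of -0.20 ± 0.19 and a 95% interval of -0.61 to 0.22. Its level differed more among animals than with length order: both mates of 753 were lowest and both mates of 985 highest. The shorter mate of 985 measured 13 mm, and the mates of 753 measured 15 and 12 mm. These 2 pairs also differed in Y-linked transcripts, which summed to 379 and 377 CPM in 753 and to 0.407 and 0.295 CPM in 985. What sets the level of IFNT2 was not tested. IFN-TAU, a second locus of the family, was at 0.97 CPM in the shorter and 1.72 CPM in the longer on average (0.70 ± 0.36). Reads of close copies such as the IFNT, PAG and TKDP families cannot be assigned to one copy with certainty.

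TKDP1, a Kunitz-type protease inhibitor of the trophoblast and one of the most abundant transcripts here, was at 27600 and 32500 CPM in the longer and shorter conceptus of 690, 9350 and 2790 in 753, 20100 and 28000 in 755, 34500 and 35500 in 778, 34500 and 24700 in 825, 40300 and 33800 in 894, 45500 and 28900 in 971, and 40300 and 23400 in 985. The longer conceptus was higher in all 5 HF pairs and lower in all 3 SF pairs. The log2 difference over all pairs was 0.39 ± 0.21, and it was 0.78 in HF and -0.25 in SF pairs (difference 1.03 ± 0.33, unadjusted p = 0.00903, adjusted p 1 in edgeR's test). All 3 tested TKDP genes had positive estimates, with a median of 0.39 against 0.01 over all genes tested.

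The PAG genes encode inactive aspartic proteases of the trophoblast. Of 20 listed, 6 passed the filter on low counts, 4 of them with a positive estimate (median 0.27), and none was called. PAG2, expressed throughout the trophectoderm, was at 1450 and 1750 CPM in the longer and shorter conceptus of 690, 381 and 274 in 753, 509 and 4080 in 755, 2660 and 2710 in 778, 2500 and 1190 in 825, 4550 and 3140 in 894, 3850 and 2130 in 971, and 3260 and 782 in 985. It too was higher in the longer mate in each HF pair and lower in each SF pair (0.99 and -1.03 on the log2 scale, difference 2.03 ± 0.63, unadjusted p = 0.00741, adjusted p 1). Pair 755 had the largest gap in the SF direction and 985 in the HF direction. PAG11 was at 1970 to 18500 CPM in the longer and 2310 to 21900 CPM in the shorter (-0.14 ± 0.16), with both mates of 971 lowest. PAG8 had a log2 difference of 0.23 ± 0.27.

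**Figure D3:**
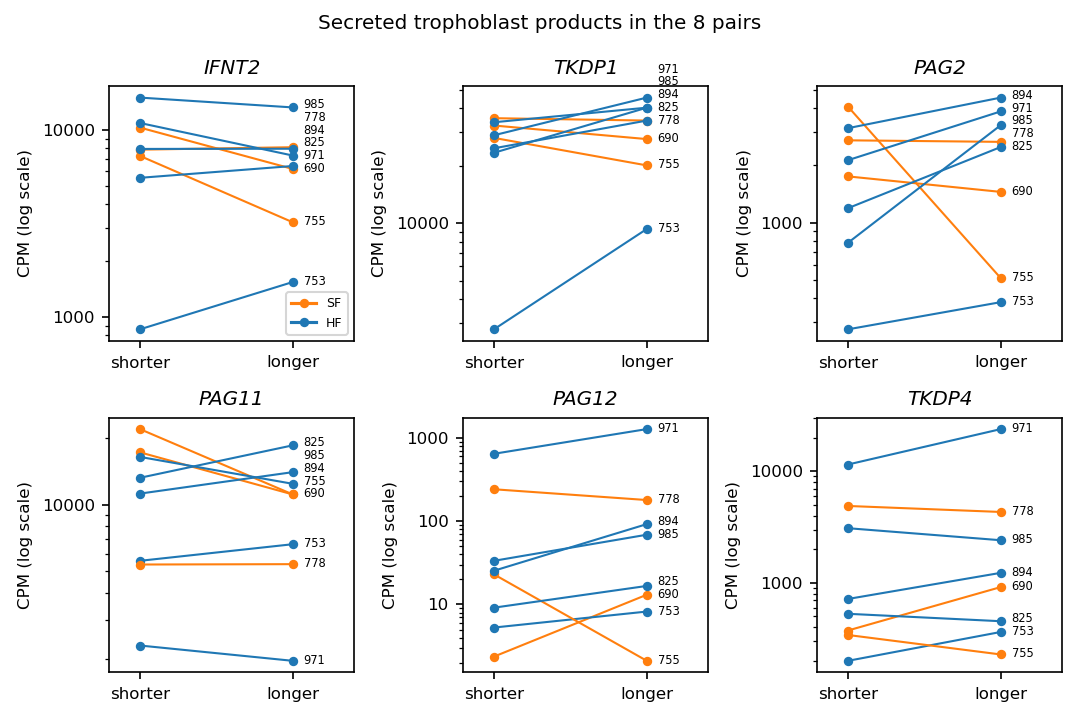
CPM on a log axis for 6 secreted trophoblast products, with a line from the shorter to the longer conceptus of each recipient (orange SF, blue HF). TKDP1 and PAG2 go up in every HF pair and down in every SF pair, and TKDP4 and PAG12 spread over recipients by far more than they differ between mates.

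One conceptus stood apart for several, not all, genes of binucleate cells, the trophoblast cells that later fuse with the uterine epithelium and secrete placental hormones. In the longer conceptus of 971, at 170 mm the longest of the 16, GCM1, a transcription factor of differentiating trophoblast, had 250 reads, against 9 in its 28 mm mate and at most 18 in the other libraries. CSH2, placental lactogen, had 12 reads there and 0 in each of the other 15 libraries, and PRP3, a prolactin-related protein, had 40 and 0. PAG16 (187 reads), PAG9 (127), PAG18 (112), PAG5 (68), PAG17 (62), PAG3 (54) and PAG4 (41) were at 0 to 4 reads in each of the other 15. PAG1, in contrast, had 6 reads there, the lowest of the 16 libraries, and 22 in its mate, and PRP2, PRP4 and PAG19 were at 0 in all 16. The list of binucleate and giant cell genes had 6 members that passed the filter on low counts, among them FURIN, STAR, CYP11A1 and CYP19A1. Their mean score, as log2(CPM + 1), was 5.43 there, 5.33 in its mate and 5.19 in the longer conceptus of 894. GCM1, CSH2 and PRP3 are not part of that score, so it cannot be set against their reads. TKDP2 had 29519 reads in the longer conceptus of 971, 1025 in its mate and 73 to 1219 elsewhere. This is a single library, so the difference has no replicate, and it also held the highest share of RN7SL1 and RMRP reads (8.55%, against 1.5% to 4.1% in the other longer conceptuses). TKDP4 and PAG12 were high in both mates of 971 (23900 and 11500 CPM, and 1270 and 642 CPM) and next highest in both mates of 778 (4320 and 4890 CPM, and 179 and 241 CPM).

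Of 22 tested trophectoderm transcription factors and keratins, 15 had a positive estimate, with a median of 0.06. After GATA2 the smallest p was that of GRHL1, a grainyhead factor of epithelia, at a mean of 180 CPM in the longer and 143 CPM in the shorter (0.33 ± 0.11, higher in 7 of 8). CDX2, which specifies trophectoderm, was close between mates (0.12 ± 0.14), at 29.3 and 16.4 CPM in 755, its widest gap. Epiblast genes showed no shared direction: 4 of 8 tested were positive, with a median of -0.01. POU5F1, a pluripotency factor, had 292 reads in the longer and 27 in the shorter conceptus of 690, 288 and 116 in 755, 12 and 115 in 894, and 18 and 79 in 778, and its log2 difference was 0.51 ± 0.64. NANOG ranged from 0 to 48 reads in either group. How much of the embryonic disc entered each RNA preparation is not given, and in bulk RNA fewer cells of a type and less RNA per cell cannot be told apart.

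Visceral endoderm and yolk sac products leaned to the longer conceptus. Of 18 tested, 17 had positive estimates (8084 of 15337 over all genes), with a median of 0.37 against 0.01 over all genes. Of the 18, only 3 had an unadjusted p under 0.05 and none was called. The median over these genes was positive in 6 pairs, highest in 971 (1.19), and negative in 985 (-0.82) and 778 (-0.24). APOE, a lipid carrier, was at 363 and 251 CPM in the longer and shorter conceptus of 690, 63.6 and 46.1 in 753, 475 and 238 in 755, 350 and 420 in 778, 213 and 126 in 825, 184 and 239 in 894, 290 and 237 in 971, and 240 and 83.8 in 985 (0.49 ± 0.19, higher in 6 of 8). AFP, the fetal counterpart of albumin, was sparse: 166 reads against 4 in 690, 45 against 2 in 755, 195 against 0 in 825 and 503 against 12 in 971, with the order turned in 894 (2 against 22), 778 (14 against 22) and 753 (0 against 2), and 0 reads in both mates of 985. Its fitted difference of 3.28 ± 1.34 rests on those 4 pairs. TF, transferrin, followed the order of AFP in 690, 755 (10.2 and 3.70 CPM), 825 (17.4 and 5.78 CPM), 971 (40.5 and 5.10 CPM), 778 (10.7 and 12.3 CPM) and 894 (0.546 and 2.91 CPM). It went the other way in 753 (0.888 and 0.182 CPM), was at 0.225 and 0.753 CPM in 985, and had a log2 difference of 1.04 ± 0.54. The endoderm transcription factors did not lean: 7 of 12 were positive, with a median of 0.03.

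Matrix and mesenchyme genes moved in opposite directions in the most unequal pairs. The median over the 11 tested genes was 1.80 in 971 and -2.53 in 985, and between -0.31 and 0.86 in the other 6. COL1A2, a chain of type I collagen, was at 11.5 CPM in the longer and 0.28 CPM in the shorter conceptus of 971, but at 0.15 CPM in the longer and 2.37 CPM in the shorter of 985. COL3A1, type III collagen, was at 4.28 and 0.467 CPM in 971 and at 0 and 6.25 CPM in 985. Over all 8 pairs COL1A1 differed by 0.42 ± 0.29 and COL3A1 by -0.87 ± 0.91. COL1A1, COL3A1 and DCN are also among the uterine stroma markers, whose median in those pairs was 1.33 and -3.45, and whether uterine or conceptus cells were the source was not tested. Of 17 basement membrane genes 13 were positive (median 0.12), among them SPARC (0.33 ± 0.15).

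**Figure D4:**
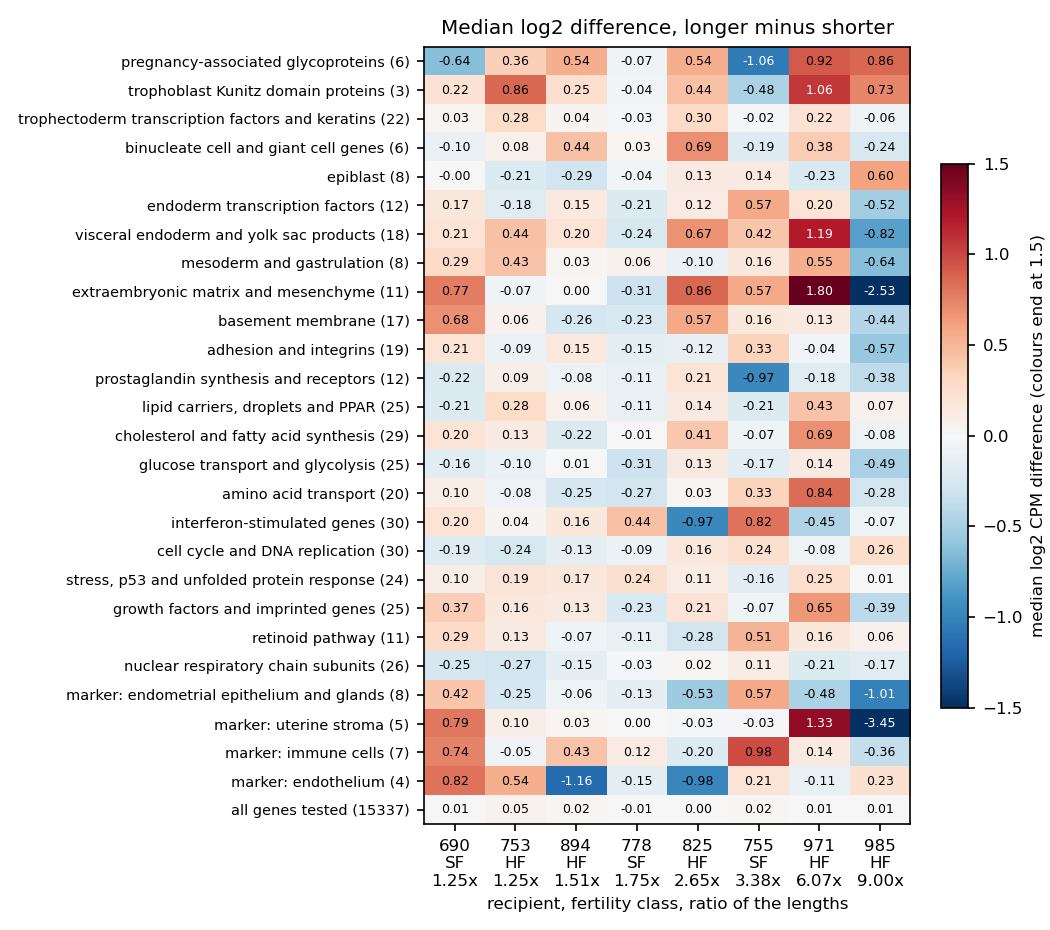
Median log2 CPM difference, longer minus shorter, of each gene list in each pair, with the number of tested genes in brackets and pairs ordered by the ratio of the lengths. No list has a median of one sign in all 8 pairs, and pairs 971 and 985 differ in sign for endoderm products and matrix genes.

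Metabolic lists moved little. Of 29 genes of cholesterol and fatty acid synthesis 25 had positive estimates, with a median of 0.13, and FDPS, which makes farnesyl diphosphate, had the smallest p (172 against 136 CPM on average, 0.28 ± 0.12, higher in 7 of 8). By pair the median of that list was highest in 971 (0.69) and 825 (0.41) and lowest in 894 (-0.22). Nuclear subunits of the respiratory chain leaned the other way: 5 of 26 were positive, with a median of -0.09, and SDHD, SDHC and UQCRFS1 had an unadjusted p under 0.05. SLC2A1, the main glucose transporter, was at 287 against 364 CPM (-0.29 ± 0.12) and SLC2A5, a fructose transporter, at 37.2 against 47.7 CPM (-0.39 ± 0.12), each lower in the longer mate of 7 of 8 pairs and neither called. Other sugar transporters were mixed: SLC2A3 and SLC5A1 were each higher in the longer of 5 of 8 pairs (SLC5A1 by a CPM ratio of 4.5 in 690), SLC2A2 in 3 (3.49 in 985) and SLC2A8 in 2. Over the 25 tested genes of glucose transport and glycolysis 7 were positive, with a median of -0.07. Of 12 prostaglandin genes 2 were positive (median -0.09). PTGS2, the cyclooxygenase that conceptuses express strongly at this stage, was at 649 to 4400 CPM in the longer and 764 to 6830 CPM in the shorter (-0.30 ± 0.30).

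Among 24 stress genes 15 were positive (median 0.07) and 4 had an unadjusted p under 0.05, all higher in the longer. ATF4, the transcription factor of the integrated stress response, was at a mean of 121 against 91.4 CPM (0.43 ± 0.12, higher in 7 of 8). DDIT3, a target of ATF4, was at 4.66 against 3.07 CPM (0.77 ± 0.23), and the other 2 were HSP90B1 and ATF5. Other genes of this list were mixed. The ratio of CPM + 1, longer over shorter, was 0.81 to 0.984 over the pairs for CHAC1 and 0.78 to 1.61 for ASNS. For TRIB3 it was 0.215 in 755 and 1.04 to 1.39 in the other pairs. Cell cycle and DNA replication genes had no common direction over the 8 pairs: 14 of 30 were positive and the median was -0.02. Pairs went opposite ways, with 25 of 30 genes higher in the longer conceptus of 755, 24 in 825 and 21 in 985, but 5 in 753 and 8 in 690, and pair medians from -0.24 to 0.26. For amino acid transport 10 of 20 were positive (median 0.01).

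The third comparison used the size of the length difference. A slope on log2 length with the animal as a block called 0 of 15337 genes (0%) in edgeR's test, with 1006 at an unadjusted p under 0.05. The smallest adjusted p was 0.0912, for LOC525947, with a slope of 0.45 ± 0.06 on the log2 scale per doubling of length. Genes with small p and a positive slope included OS9, a lectin of endoplasmic reticulum quality control (0.31 ± 0.06) and APOE (0.36 ± 0.09). BCAT1 led the negative side (-0.30 ± 0.06, unadjusted p = 0.000207). Without pair 971 the number of genes at an unadjusted p under 0.05 was 2401, and still 0 were called.

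The fourth comparison asked whether the gap between mates differed between the 3 SF and the 5 HF recipients. In edgeR's interaction test 0 of 15337 genes (0%) were called, and 435 had an unadjusted p under 0.05. Without pair 778 there was 1 call, LOC788724. Among the named genes the smallest p belonged to S100A2, a calcium-binding protein of epithelia (1.10 in SF and -0.61 in HF pairs), followed by the interferon-stimulated IFI6 (1.56 and -0.58), TMA7 (0.57 and -0.35), the interferon-stimulated OAS1Y (1.13 and -0.51) and AASS, an enzyme of lysine breakdown (-0.50 and 0.48). MX1 (1.06 and -0.53) came after several genes outside that group. Over 30 tested interferon-stimulated genes the median was 0.68 in SF and -0.25 in HF pairs. By pair it was 0.20, 0.82 and 0.44 in the SF pairs 690, 755 and 778. Of the HF pairs, 753 (0.04) and 894 (0.16) were positive, 985 (-0.07) and 971 (-0.45) negative, and 825, where uterine transcripts were high in both mates, was the lowest (-0.97). Uterine GRP, gastrin-releasing peptide of the glands, had 0.91 and -0.78 in the same fit, and whether uterine RNA accounts for the interferon-stimulated genes was not tested.

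The fifth comparison set the pairs beside conceptuses whose animal number occurred in only 1 conceptus title, called single here. The titles do not say whether each was alone in its uterus. Of 11 such libraries, 6 long HF were compared with 1 short HF and 3 SF conceptuses of stated length, so that length and fertility class are nearly confounded there. In edgeR's test 1 of 15621 genes (0.0064%) was called, LOC104969408, and 1611 had an unadjusted p under 0.05; with the sheet in the fit none was called. All 10 of the named genes lower in the longer mate were also lower in the longer single conceptuses (BCAT1 -0.78 ± 0.25, PGRMC1 -0.52 ± 0.23, NXT2 -0.65 ± 0.26), and 9 of the 10 named higher genes were higher (BIN2 0.52 ± 0.17, BCL2L14 0.67 ± 0.43); CNTRL was the exception. Over all genes 58.7% had the same sign in both comparisons, and over the 707 genes with an unadjusted paired p under 0.05 that were fitted in both, 73.1% did. That share was 86.1% for genes lower and 63.9% for genes higher in the longer mate. The 2 comparisons share no library, but sheet goes partly with length in both. The long singles were all on the first sheet and some of the short ones on the second. The same holds for the longer and shorter mates of 690, 971 and 985. Whether sheet contributes to the shared signs was not tested. The change in pairs differed from that in singles for 0 of 15298 genes (0%), with 1067 at an unadjusted p under 0.05.

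The uterus of origin separated conceptuses where length order did not. In a test added after seeing the data, 3706 of 15337 genes (24.2%) differed among the 8 animals with length order in the fit (edgeR F-test, adjusted p under 0.05), and 6339 had an unadjusted p under 0.05. Animal in this test carries everything that mates share: the uterus, the fertility class, parents if common, sex if alike, and handling, which cannot be told apart. The count was 1965 without pair 753, whose mates measured 15 and 12 mm, and 4764 without 985. The median intraclass correlation, the share of a gene's variance that lies between animals, was 0.427, and it was above 0.5 for 41.2% of genes. PPP2R5B, a regulatory subunit of protein phosphatase 2A, had the smallest p: it was at 2.24 to 91.1 CPM over the libraries, with the high values in both mates of 753. HMOX1, heme oxygenase, was at 277 and 160 CPM in 690, 352 and 265 in 778, 175 and 194 in 755 and 73.8 and 111 in 971, but 4.56 and 7.38 in 753 and at most 24.5 in the other 3. By list, the share of tested genes called was 86.7% of 30 interferon-stimulated genes, 66.7% of 18 endoderm products, 63.6% of 22 trophectoderm genes, 27.6% of 29 cholesterol and fatty acid genes and 10.0% of 30 cell cycle genes.

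Several of the genes that differed most among animals are uterine. GRP was at 349 and 657 CPM in the longer and shorter conceptus of 825 and at 0.587 to 33.8 CPM in the other 14 libraries. MUC16, a mucin of the luminal epithelium, was at 59.5 and 123 CPM in 825, 29.1 and 25.0 in 778 and at most 6.29 elsewhere. MX1, an antiviral effector that the pregnant endometrium expresses at high level, was at 41.8 and 83.7 CPM in 825, 11.6 and 10.2 in 778 and at most 6.38 elsewhere. These genes moved together in both mates of 825 and were about equally higher in the shorter one. In the 10 pregnant endometrium libraries GRP averaged 2010 CPM, MUC16 103 CPM and MX1 2840 CPM. Of the 13 listed epithelial and gland genes 8 were tested and 7 (87.5%) were called among animals, against 24.2% of all genes tested. PGR and ESR1 stayed under 1 CPM. The sum over all 13 was 67.8 to 196 CPM in the longer and 88.1 to 286 CPM in the shorter. This sum does not measure uterine RNA. It stayed at these levels in 894 too, where GRP was at 0.591 and 0.587 CPM and MUC16 at 1.09 and 0.646 CPM. Without pair 825 the count among animals was 2854 of 15317 genes tested. Of the 1744 tested genes that averaged at most 1 CPM in pregnant endometrium 522 were called, beside 3706 of 15337 (24.2%) over all genes tested.

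Sex-linked transcripts were shared by mates in all pairs but one. DDX3Y, a Y-linked RNA helicase, was at 173 and 198 CPM in 690, 169 and 184 in 753, 103 and 96.9 in 778 and 84.1 and 80.5 in 971, and at most 0.318 CPM in 825, 894 and 985. In 755 it was at 133 CPM in the longer and 0 in the shorter conceptus. XIST, which is transcribed from an inactive X chromosome, was at 98.3 to 154 CPM in both mates of 825, 894 and 985 and in the shorter of 755, and at 0.98 to 19.5 CPM in the others. By titles 7 of 8 pairs were alike in Y-linked transcripts, and by the descriptions, which give another animal or length for many samples, 3 of 8. Among the 4 recipients with Y-linked transcripts in both mates 4392 of 15806 genes differed, and among the 3 without them 260 of 14989. By these transcripts the mates differed in sex in 755, and without that pair 0 genes were called between the longer and shorter conceptus.

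**Figure D5:**
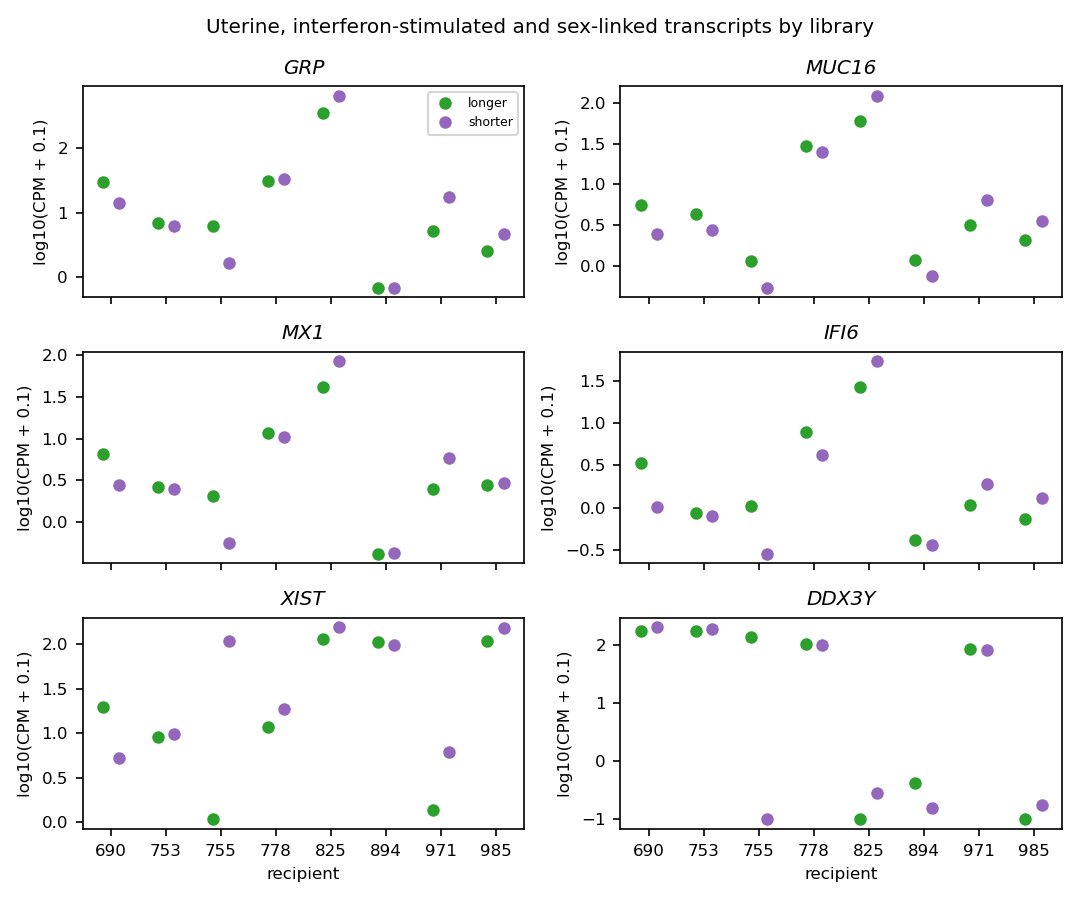
Level as log10(CPM + 0.1) of 2 uterine genes (GRP, MUC16), 2 interferon-stimulated genes (MX1, IFI6) and 2 sex-linked genes (XIST, DDX3Y) in the longer (green) and shorter (purple) conceptus of each recipient. Both mates of 825 are highest for the first 4 genes with the shorter above the longer, and 755 is the one recipient whose mates differ in DDX3Y.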

How the data were processed

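The authors deposited 1 table of read counts per gene, not normalized, for all 52 libraries. Per the submitters' processing notes, the tools were HISAT2, StringTie and edgeR and the build UMD3.1. For versions, and for strand use in counting, the sources used here give nothing. Per the labels' protocols, libraries came from a strand-marking mRNA kit. The 1020 blank rows held no values and were left out. Lengths in cm in the titles were converted to mm. Columns were matched to samples by title; 22 conceptus descriptions name another animal or length.

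Genes with low counts were removed (filterByExpr, minimum count 10, minimum total 15), libraries were scaled by TMM, and edgeR's quasi-likelihood test was used with animal as a block and Benjamini-Hochberg adjustment at 0.05 (R 4.3.3, edgeR 4.0.16, limma 3.58.1, DESeq2 1.42.0). CPM use the same scaling, except those of endometrium, and log2 CPM a prior count of 2. Values after ± are SE. Animal numbers pair the conceptuses: deviations of mates from the group means correlated at 0.207 to 0.737 in all 8 pairs. Nothing says that animals were replicated in separate extraction runs. In the tests between mates, p-values rest on how the differences between mates vary over these animals. In the test among animals they rest on the spread between the mates of a uterus. In the single conceptuses they rest on the spread between animals.

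Where under 5 genes were called in a direction, the text names the 10 with the smallest p that have a symbol and reach 5 CPM in the higher group, with of each list up to 4 members with the smallest p. Further members given by pair were chosen after their values were seen. Members and lists were chosen with earlier results of these data known. Alternatives were other scalings and filters, DESeq2, limma-voom, no block, the sheet as a covariate, subsets of pairs, pairs left out, and the mapping by description. The fit was tested on simulated counts. The SF single conceptus without a stated length (748) is not analysed here; HF single conceptuses entered the fifth comparison by their long or short class, whether or not a length is stated. One result of the slope on length is not reported here.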

Additional observations from a re-analysis of the deposited data

Results flagged for a closer look

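A list score is the mean log2(CPM + 1) of the members that passed the filter on low counts. The scores of interferon tau, PAG, uterine stroma and endothelium therefore rest on 2, 6, 5 and 4 genes. Over 4 library measures and 30 list scores in the 8 longer and the 8 shorter conceptuses, 68 groups of 8 values were searched by Dixon's criterion. A library far from the others was found in 7, and chance gives about 1 in 20. In the longer conceptus of 971, RN7SL1 and RMRP took 8.55% of the counts (1.5% to 4.1% in the other longer ones), and its score for TKDP genes was 13.36 (8.01 to 10.0). In pair 753 the shorter conceptus had an interferon tau score of 5.12 (6.68 to 7.53 in the other shorter ones) and the longer a score for glucose transport and glycolysis of 6.8 (7.19 to 7.46). In pair 825 the shorter had a score for interferon-stimulated genes of 4.11 (1.63 to 2.71), beside its high GRP and MUC16, and the longer an endothelium score of 2.38 (0.94 to 1.56). The shorter conceptus of 985 had a uterine stroma score of 2.57 (0.71 to 1.54). The score of the PAG genes was higher in the longer mate in all 5 HF pairs (by 0.06 to 0.8) and lower in all 3 SF pairs, with a gap between the classes of 0.9 in the mean difference; the difference of this score was not tested, and no PAG gene was called in the test by gene.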

How the results depend on the processing

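The count of genes called between the longer and shorter conceptus was 0 under edgeR with DESeq2 size factors, without RN7SL1 and RMRP, with at least 1 CPM in 8 libraries, with the sheet as a covariate, in the 5 pairs on 1 sheet, the 3 split pairs, the 5 most unequal pairs, the 5 HF and the 3 SF pairs (the last 2 chosen after seeing the data), by description, in limma-voom, and without each pair in turn (0 to 0). It was 4 with DESeq2 and 1 without a filter (LOC100299671, of 27098 genes tested). Without the replicate block 0 genes were called and 284 had an unadjusted p under 0.05, so that pairing did not change the call. The 20 named genes kept their sign in 160 of 160 refits without 1 pair and in 260 of 260 other refits by title, and in 4 of 20 by description. They were chosen by small p in these same pairs, so kept signs by title are no independent check. Slopes on length called 0 genes throughout. The difference between SF and HF pairs ranged from 0 to 1 call over the pairs left out (1 without 778) and the single conceptuses from 0 to 2, with 0 once the sheet was in the fit. The animal test, added after seeing the data, called 1965 to 4764 genes over the pairs left out and 1432 in the 4 pairs on the first sheet. It called 1995 in the HF and 1380 in the SF pairs, and 260 in the 3 pairs without Y-linked transcripts. Of the 1744 genes low in endometrium it called 522, and by description 46 genes. The subsets hold fewer animals or genes, and the cause was not tested otherwise. The share of RN7SL1 and RMRP, 0.359 percentage points higher in the longer over 8 pairs, was -0.406 in the 5 pairs on 1 sheet, a turn that the 8.55% of the longer conceptus of 971, which is not in that subset, accompanies. With 8 pairs, differences under 0.353 on the log2 scale were within the 95% interval of a typical gene. That interval is not adjusted for the number of genes tested, so larger differences could also go uncalled. BCL2L14, at 0.75 ± 0.16, had an adjusted p of 0.948 in edgeR's test.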
